A study of Saposhnikovia divaricata with 9 samples.

Results

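Leaves of Saposhnikovia divaricata, a perennial of the carrot family whose dried root is the herbal drug Fangfeng, were compared between the groups coded M and C, with 3 RNA libraries in each. The transcripts described are the 31624 assembled clusters, of 63753 in the expression table, that reached 1 FPKM or more in at least 3 of these 6 libraries. FPKM, the unit of all levels given, counts sequenced fragments relative to the length of a cluster and to all fragments mapped in a library. These clusters held between 97.8% and 98.2% of all FPKM in each library. Of them, 21801 reached 1 FPKM in all 6 libraries and 4686 in exactly 3, whereas 8542 clusters with 2 such libraries fell just outside.

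The study sequenced poly(A) RNA from leaves in 9 libraries, 3 in each of the groups C, M and L. Its design names plants of 48 days, with an untreated control and with cold at 4 °C for 6 h or 48 h. All groups share the species, the tissue and, as far as the design says, the plant age. No label ties a code to the control or to a length of cold, so the letters stand as they are, and a difference between M and C has no direction in terms of cold. The labels also do not say whether replicates were separate plants or pools, and p-values here reflect no more than library-to-library spread, which may be technical. The clusters carry numbers without gene names here, so the leaf label could not be checked against leaf markers, and no gene, pathway or position can be given.

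As background, plants from temperate regions respond to chilling within hours by changing the transcripts of many genes. In Arabidopsis, the CBF transcription factors are induced early and in turn raise COR genes, whose products help protect membranes and proteins from freezing. Longer cold brings further change in the transcripts of photosynthesis, sugar metabolism and membrane lipids. Which clusters correspond to any of these genes is not known here.

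One library stood apart before any group comparison. On the log2(FPKM + 1) scale used for all fold changes, 20.4% of the clusters differed at least 2-fold between C replicates 1 and 2, and 18.7% between C replicates 2 and 3. The share was 8.60% between C replicates 1 and 3, and between 8.44% and 11.8% for pairs of M libraries. Between a C and an M library it was 25.0% to 31.6%. The median standard deviation of a cluster was 0.31 (log2, n = 3) in C, 0.24 (n = 3) in M and 0.18 (n = 2) in C without replicate 2. Values from 2 libraries run lower than values from 3. The like measure for M, from pairs of its libraries, was 0.18, 0.19 and 0.21 (n = 2). Relative depth, read from the steps in which low values move, lay between 0.953 and 1.08 times that of C replicate 1 in the 6 libraries.

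The strongest single-library departures were in C replicate 2. In this library 92 clusters lay at least 8-fold above both other C libraries and 135 lay at least 8-fold below both. In each of the other 5 libraries between 1 and 14 clusters lay that far above both others of their group and between 0 and 9 that far below. Of the 92 clusters, 46 lay nearer to the M mean in C replicate 2 than in the other C libraries, 16 lay inside the range of the M libraries, and 17 lay nearer to the L mean. Of the 135 clusters, 62 lay nearer to the M mean, 31 inside the M range and 105 nearer to the L mean. The high set took 1.25% of all FPKM in C replicate 2, and its highest cluster stood at 3632 FPKM there. The main counts and the values of the named clusters are given with and without C replicate 2. This comparison was chosen after the values were seen, and its cause was not tested.

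Leaves of group M held more transcripts with large rises than with large falls relative to group C. Among the 31624 clusters 2815 rose and 1646 fell, which was 8.90% and 5.20% (limma on all 9 libraries, Benjamini-Hochberg adjusted p below 0.05 and at least 2-fold). Over the 35314 clusters tested, a set that also includes clusters reaching 1 FPKM with the help of L, the background was 8.16% called higher, 4.71% called lower and 12.9% in either direction. Leaving out C replicate 2 gave 3295 rises and 2103 falls. The 2815 and 1646 include 985 rises and 433 falls that reached 1 FPKM in every library of the higher group and in none of the other. These entered the set through the group in which they were high. The median of all 31624 changes was -0.06 (log2), with quartiles at -0.45 and 0.47.

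**Figure D1:**
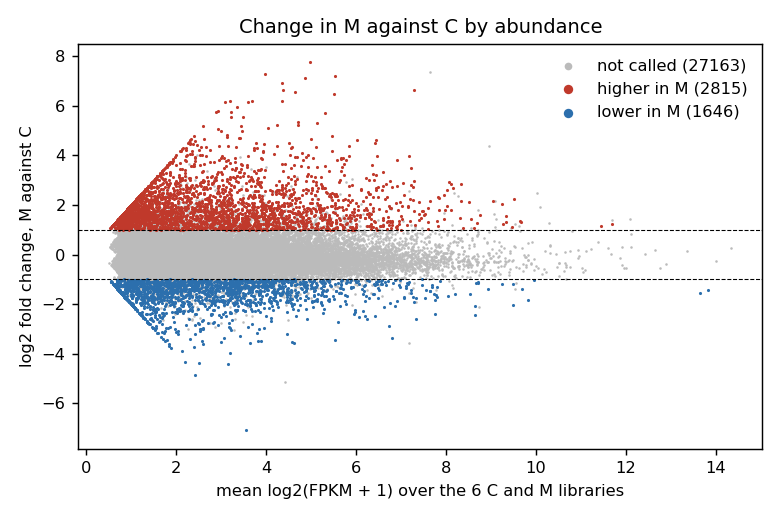
Log2 fold change of M against C (vertical axis) against the mean log2(FPKM + 1) over the 6 libraries (horizontal axis), 1 point for each of the 31624 clusters. Red points mark the 2815 clusters called higher in M, blue points the 1646 called lower and grey points those not called; dashed lines mark 2-fold, and the upper cloud reaches further than the lower one.

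Rises were larger than falls. The median change was 1.70 (log2) among clusters that rose, with a median standard error of 0.31, and -1.45 among those that fell, with a median standard error of 0.29. At least 4-fold rises numbered 954 and at least 4-fold falls 274. At 8-fold there were 278 rises and 44 falls, and at 16-fold 88 rises and 5 falls. The calls of at least 8-fold over all 35314 clusters tested were the same 278 and 44, or 0.787% and 0.125%. The ratio of rises to falls was higher at each of these steps. Without C replicate 2 the counts were 1146 and 457 at 4-fold, 339 and 98 at 8-fold and 110 and 16 at 16-fold. Whether these changes in count are particular to that library was not tested.

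The excess of rises was smaller without the 2-fold requirement. Another 1724 clusters passed the adjusted p but changed less than 2-fold, and of these 473 were higher and 1251 lower in M. Counted on the limma adjusted p alone, 3288 clusters were higher and 2897 lower, or 53.2% higher, against 63.1% with the 2-fold requirement. They numbered 3792 and 3249 without C replicate 2. Over all clusters tested, 9.57% were higher and 8.25% lower by the adjusted p alone.

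Counting clusters whose C and M values do not overlap turned the balance round. All 3 M libraries lay above all 3 C libraries in 5671 clusters and below them in 7367. These were 17.9% and 23.3% of the clusters, against 18.0% and 21.3% over all clusters tested. Without C replicate 2 the numbers were 8475 and 9993. Leaving out any library can only raise these numbers, since 2 C libraries are easier to separate from M than 3. No other library was left out for this count, so whether the size of the increase is particular to C replicate 2 was not tested. Of the clusters that separated in this way, 2795 of the higher and 1644 of the lower ones were called. FPKM are shares of a library, so a fall in proportion and a fall in amount cannot be told apart.

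The called sets were also described library by library. The median level of the clusters that rose was 1.13, 1.67 and 1.62 FPKM in C replicates 1 to 3, and 9.57, 9.19 and 9.72 FPKM in M replicates 1 to 3. The clusters that fell had medians of 9.59, 8.38 and 9.79 FPKM in the C libraries and of 2.29, 2.61 and 2.07 FPKM in the M libraries. All M medians lay on 1 side of all C medians, as the selection requires. The C library nearest to M was replicate 2 in 44.7% of the clusters that fell, replicate 3 in 28.6% and replicate 1 in 26.7%. In the clusters that rose it was replicate 3 in 37.9%, replicate 2 in 35.2% and replicate 1 in 26.9%.

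Most rises started from a low level, which choosing clusters for a rise favours. Of the 2815 clusters that rose, 1202 had a mean below 1 FPKM in C and 1966 a mean below 5 FPKM. Low levels were common in general, since 13996 of all 31624 clusters had a mean below 5 FPKM over the 6 libraries. Of the 1646 that fell, 546 ended below 1 FPKM in M, and the median of their M means was 2.44 FPKM. In all, 1360 clusters reached 1 FPKM in every M library and in no C library, and 985 of them were called higher. The reverse held for 717 clusters, of which 433 were called lower. These clusters entered the set through the group in which they were high, so their calls are a description and support nothing about the set as a whole.

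Some transcripts were listed at 0 throughout all libraries of 1 group. All C libraries listed 393 clusters at 0, with M means from 1.09 to 77.3 FPKM and a median of 2.90, and all M libraries listed 145 clusters at 0, with C means from 1.10 to 146.2 FPKM and a median of 2.73. In group L, 144 of the 393 and 82 of the 145 were also listed at 0 in all 3 libraries, while 52 and 6 reached 1 FPKM in all 3. An exact 0 in such a table can be a failed estimate. Of these clusters, 369 and 140 are among the called rises and falls, and 43 are among the 278 rises of at least 8-fold. Their place there rests on the fitted log2(FPKM + 1) difference, which depends on the pseudocount and is no measure of their true fold. At the level of libraries, C listed 46381 ± 1171 clusters above 0 and M listed 50359 ± 777.1 (mean ± SD, n = 3), and every M library exceeded every C library. The exact two-sided permutation p of 0.1, the smallest possible for 3 against 3, became 0.175 after Benjamini-Hochberg adjustment over 7 library measures.

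Changes were found at every level of expression. Clusters were classed by their mean over the 6 libraries, which in a strongly changed cluster is set mostly by the group where it is high. At 100 to 500 FPKM, 73 of the 133 rises and 11 of the 61 falls were at least 4-fold. The shares by class are therefore a description. Among 13996 clusters under 5 FPKM, 9.38% rose and 5.36% fell. Among 10954 clusters at 5 to 20 FPKM the shares were 7.70% and 5.16%, and among 5475 at 20 to 100 FPKM they were 9.35% and 4.73%. Of 1040 clusters at 100 to 500 FPKM, 12.8% rose and 5.87% fell. At 500 FPKM or more there were 159 clusters, of which 13 rose and 11 fell. Rises outnumbered falls in every class, also without C replicate 2, where the highest class held 17 rises and 12 falls. The median change of all clusters in a class went from 0.02 (log2) under 5 FPKM to -0.15 at 100 to 500 FPKM.

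**Figure D2:**
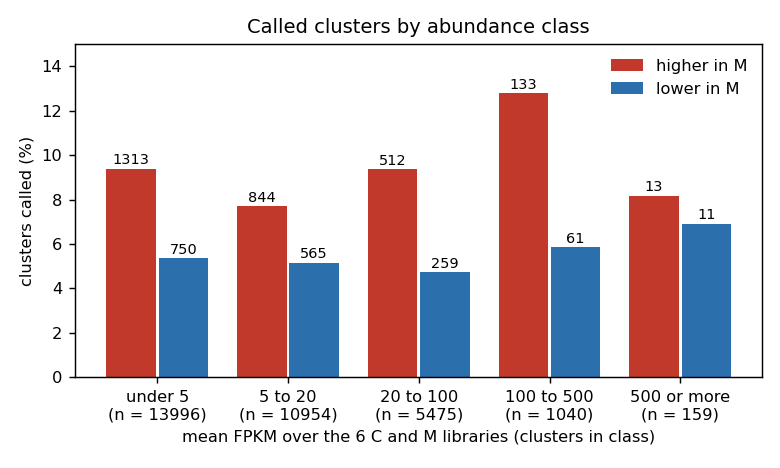
Share of clusters called higher (red) or lower (blue) in M, in percent, by mean FPKM class over the 6 libraries; the number above a bar is its count of clusters and n the clusters in the class. The red bar is the taller one in all 5 classes, with 12.8% at 100 to 500 FPKM and 8.18% at 500 FPKM or more.

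Much of the FPKM lost from C to M lay in a pair of very abundant transcripts. Summed over clusters, the drop in mean FPKM from C to M came to 67392 among those that fell, and 2 clusters made up 43.4% of it. The top 7 of the 1646, or 0.425%, made up 50.2%. The drop came to 79639 FPKM without C replicate 2, with 35.5% of it in 2 clusters. The gain among clusters that rose came to 88390 FPKM and was spread more widely, with 5.73% in the top 2 clusters, 14.4% in the top 10 and 46.1% in the top 100. In single libraries, the share of FPKM held by the clusters that fell was 11.4%, 11.1% and 11.8% in C and 3.49%, 4.19% and 4.34% in M. For the clusters that rose it was 3.10%, 3.24% and 3.82% in C and 13.3%, 13.3% and 14.0% in M. Both sets were selected on these libraries, so the shares are a description.

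**Figure D3:**
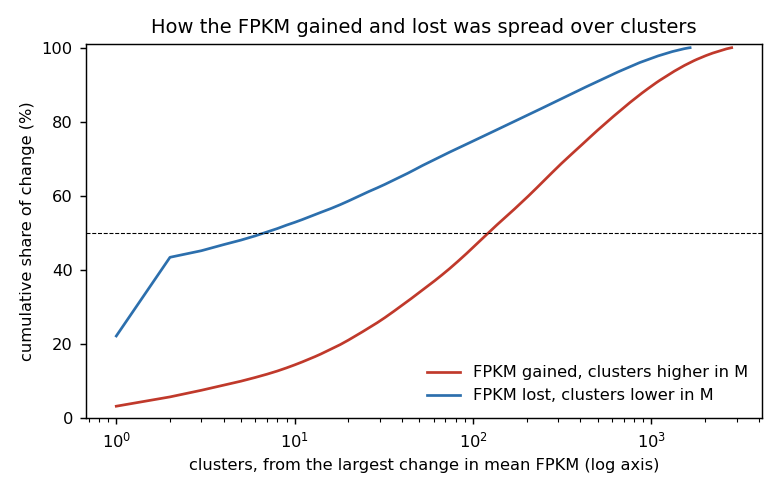
Cumulative share of the change in mean FPKM between C and M, in percent, against the number of clusters ordered from the largest change (log axis), for clusters higher in M (red) and lower in M (blue). The dashed line marks 50%, which the blue curve reached with 7 clusters and the red curve with 122.

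The most abundant transcript of group C, Cluster-17261.23763, was lower in M by more than 2-fold. It stood at 21892, 25189 and 24955 FPKM in C replicates 1 to 3 and at 7153, 8809 and 11258 FPKM in M replicates 1 to 3. The groups did not overlap, with the lowest C library far above the highest M library. The mean went from 24012 ± 1840 to 9073 ± 2065 FPKM (SD, n = 3), a log2 fold change of -1.43 ± 0.30 (SE, limma adjusted p = 0.0126), and its rank from 1 to 4. Its share of a library's FPKM averaged 2.68% in C and 1.04% in M.

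The transcript ranked 2 in C, Cluster-17261.23560, moved alongside. It held 20416, 22827 and 23095 FPKM in C and 5785, 7408 and 10189 FPKM in M. Again the groups were apart, and in both clusters M replicate 1 was lowest and M replicate 3 highest of the M libraries. The mean fell from 22112 ± 1476 to 7794 ± 2227 FPKM (SD, n = 3), a log2 fold change of -1.54 ± 0.34 (SE, limma adjusted p = 0.0159). In L the means were 8987 ± 919.2 FPKM for the first cluster and 9231 ± 2758 FPKM for the second. Whether these clusters share reads with near-identical copies is not known here.

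Both falls kept their direction under the 12 alternatives run on them but not always their call. Quantile normalization, which replaces the values of the top ranks by common ones, gave log2 changes of -0.79 and -0.74 and no call. The call was lost under 4 of the alternatives for the first cluster and 5 for the second, without M replicate 1 among them for both (-1.27 and -1.34). Without C replicate 2 the changes were -1.39 and -1.52 and still called.

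The largest gain in level was that of Cluster-17261.23537, with 2738, 1442 and 2521 FPKM in C replicates 1 to 3 and 4959, 4770 and 5490 FPKM in M replicates 1 to 3. C replicate 2 was the lowest library, and every M library exceeded every C library. Its log2 fold change was 1.23 ± 0.31 (SE, limma adjusted p = 0.0266). Without C replicate 2 the change was 0.95 and no longer called, and the call was lost under 6 of the 12 alternatives.

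Cluster-17261.24521 had the next largest gain, from 2411, 1303 and 2070 FPKM in C to 3713, 4137 and 4601 FPKM in M. Here too C replicate 2 was lowest and the groups were apart. Its log2 fold change of 1.15 ± 0.34 (SE, limma adjusted p = 0.0475) lay close to both limits of the call. It was lost under 10 of the 12 alternatives, including each fit without 1 library, where it ranged from 0.89 to 1.33. Of the 10 largest gains in FPKM, 7 were called in all 6 of these fits.

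Other abundant transcripts were measured as nearly level. Cluster-17261.23898 stood at 11392, 8998 and 9686 FPKM in C and at 13004, 10555 and 9964 FPKM in M, with overlapping groups. Its log2 fold change of 0.15 had a 95% interval from -0.45 to 0.76 (limma). Cluster-17261.23301, at 5562, 4534 and 6248 FPKM in C and 6071, 5305 and 5250 FPKM in M, changed by 0.03 with an interval from -0.53 to 0.60. Both intervals lie within 2-fold in either direction. The changes were 0.08 and -0.09 without C replicate 2. In L the first was at 6743 ± 692.7 and the second at 10850 ± 1009 FPKM (mean ± SD, n = 3).

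**Figure D4:**
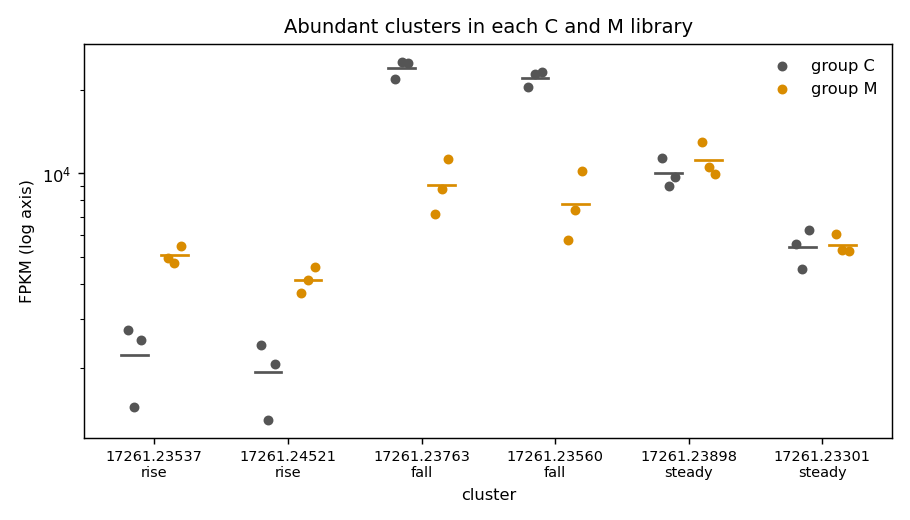
FPKM (log axis) of 6 abundant clusters in each C library (grey) and M library (orange), with a bar at each group mean. The 2 clusters marked rise and the 2 marked fall have separate groups, the latter starting near 24012 and 22112 FPKM in C, and the 2 marked steady overlap.

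Among the top ranks, more transcripts were shared than exchanged. The 100 most abundant clusters of C and of M had 71 in common. Of the top 100 of C, 11 were called lower and 2 higher in M, and 40 had a change bounded within 2-fold, beside 4.71% called lower and 8.16% called higher over all clusters tested. Of the top 100 of M, 16 were called higher and 2 lower than in C, and 35 were bounded. Choosing clusters for a high level in C favours falls and choosing them for a high level in M favours rises, so nothing is read from these counts. The deepest entry into the M list came from rank 8756 in C, while the deepest exit from the C list went to rank 629 in M. The share of FPKM in the top 100 clusters of a library averaged 31.5% ± 1.99 for C and 29.3% ± 0.458 for M (mean ± SD, n = 3, exact permutation p = 0.2, 0.28 after adjustment over the 7 measures).

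Many transcripts were measured well enough to bound their change. In 12584 clusters, 39.8%, the 95% interval of the change lay within 2-fold in either direction (limma), and 325 of these passed the adjusted p with a small shift. Without C replicate 2 the number was 11421. A further 14579 clusters, 46.1%, were neither called nor bounded, so these libraries do not tell whether they changed 2-fold. The bounded share was 26.2% under 5 FPKM and between 42.1% and 53.1% in the classes above. Replicate spread was likewise widest among the lowest clusters, with a median standard deviation of 0.39 in C and 0.32 in M under 5 FPKM, against 0.24 and 0.17 at 20 to 100 FPKM (log2, n = 3 each).

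Called changes were also counted with each library left out. When each of the 6 C and M libraries was left out in turn, 1646 of the 2815 rises and 801 of the 1646 falls were called in all 6 fits, or 58.5% and 48.7% (the first count equals that of all falls by coincidence). Over all clusters tested these calls made up 4.66% and 2.27%. Among them were 259 of the 278 called rises and 39 of the 44 called falls of at least 8-fold, and all 29 called rises of at least 32-fold and all 5 called falls of at least 16-fold. The 29 rises had C means from 0 to 14.7 FPKM, with a median of 1.09, and M means from 36.6 to 1596 FPKM, with a median of 116.3. The 5 falls had C means from 27.9 to 146.2 FPKM and M means from 0 to 2.01 FPKM. Where the higher group averaged 100 FPKM or more, 180 of 240 rises and 47 of 102 falls were called in all 6 fits.

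**Figure D5:**
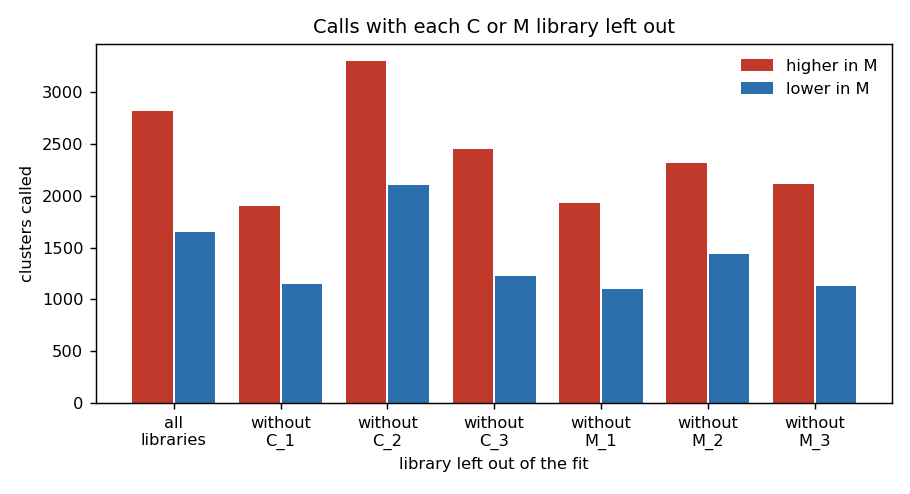
Number of clusters called higher (red) or lower (blue) in M with all libraries and with each C or M library left out of the fit. Totals range from 3024 without M replicate 1 to 5398 without C replicate 2, against 4461 with all libraries, and the red bar is the taller one in each fit.

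The first number of an identifier names a parent, and 29487 clusters carry the parent of the 6 clusters named above while 2137 carry other parents. Among the former 8.66% rose and 5.19% fell, and among the latter 12.3% and 5.47%. The latter were low, with a median of 1.30 FPKM over the 6 libraries against 7.09, and 2068 of them lay under 5 FPKM. Within that class 17.8% of them were called, against 14.2% of those with the common parent. The share of FPKM held by all clusters with other parents was 1.21% ± 0.124 in C libraries and 1.53% ± 0.0779 in M libraries (mean ± SD, n = 3, exact permutation p = 0.1, 0.175 after adjustment).

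Levels in group L were set beside those of the called clusters, as values only, since the sets were chosen on the difference between C and M. The median over the clusters that rose was 1.51 FPKM in C, 9.79 in M and 5.79 in L (medians of group means). The median over those that fell was 9.62 FPKM in C, 2.44 in M and 1.14 in L. Among the rises the L mean (log2) lay beyond M in 898 clusters, between C and M in 1228 and at or below C in 689. Among the falls it lay beyond M in 1165, between in 468 and at or above C in 13. Selecting clusters on a high or low M value makes M look extreme beside a group whose level was not selected. The L libraries still took part in the fit. Fitted on the C and M libraries only, 2610 of the 2815 rises and 1514 of the 1646 falls were called again. Clusters without a call had medians (log2) of 2.83 for C, 2.76 for M and 1.98 for L. All clusters described had to reach 1 FPKM in C or M libraries, with no such rule for L, which favours a lower L.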

How the data were processed

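Poly(A) RNA of leaves was measured in 9 libraries. Values are FPKM per cluster, calculated by the authors, per the file headers, and rounded to 2 decimals. Which aligner, assembler and counting tool they used is not given in the sources used here. An extraction protocol for an animal tissue and a mouse genome build appear in the labels and cannot apply to these plants, so both were set aside. No total of fragments is known, so no counting interval is given.

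Clusters at 1 FPKM or more in at least 3 of 9 libraries (35314) were transformed to log2(FPKM + 1), which understates changes of low clusters, and fitted with limma 3.58.1 in R 4.3.3 (3 groups, intensity trend, residual df 6, prior df 2.88), with Benjamini-Hochberg adjustment over all of them. Count models were not used, since FPKM are normalized values. On simulated data for M against C with 35314 clusters, 31% of 2-fold, 83% of 4-fold and 93% of 8-fold changes were recovered. There were 9 false calls. The shares recovered rest on 100 clusters at each fold, and a 2-fold change lies exactly at the limit of the call. Recovery by level was not tested, so no rate is given for clusters under 5 FPKM. Their median standard error was the largest of the classes at 0.34 (log2). Recovery with an outlying library such as C replicate 2 was not tested either. No 2 libraries were identical. Clusters were named by rule: among calls with separate groups, the 2 largest gains and 2 largest losses in mean FPKM, and among bounded clusters the 2 most abundant. Gene lists could not be applied without names. The clusters and tests were chosen with earlier results of these data known. Alternatives covered the pseudocount, filter, scaling, libraries fitted, replicate block, robust prior and each library left out.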

Additional observations from a re-analysis of the deposited data

How the results depend on the processing

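The balance of more rises than falls in M against C held under all 15 alternatives, which all kept the adjusted p and 2-fold requirements. No cluster called both as reported and under one of them changed direction. The balance was reversed among clusters passing the adjusted p under 2-fold (473 higher, 1251 lower) and among those with non-overlapping values (5671 higher, 7367 lower). The total of 4461 calls (2815 rises, 1646 falls) became 1996 (1343 and 653) with a pseudocount of 5, and 2645 (1653 and 992) with a minimum of 5 FPKM, which tests fewer clusters. With each of the 6 libraries left out in turn the totals ranged from 3024 to 5398, the rises from 1895 to 3295 and the falls from 1100 to 2103. Under the other alternatives the total lay between 3841 (median scaling) and 4507 (C and M libraries only). The 12584 clusters bounded within 2-fold became 24038 with a pseudocount of 5, which shrinks every change, and 8736 with a pseudocount of 0.1, and ranged from 10197 to 11421 with a library left out. Quantile normalization makes libraries alike by construction, so the difference between M and C became 0 in the number of clusters above 0, the number at 1 FPKM and the share of the top 100, and 0.0728 percentage points in the share of other parent numbers. The labels do not say whether the replicate numbers pair C and M libraries. Deviations of same-numbered libraries from their group means correlated at 0.0299, -0.0166 and -0.0198, and those of differently numbered ones between -0.0575 and 0.055. With 3 libraries in a group these values cannot settle whether the numbers pair libraries. With a replicate block 4021 clusters were called. Precision was lowest for clusters under 5 FPKM, and fragment totals are not known.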

Other observations

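Some large differences between M and C were not called, and libraries of a group lay further apart in them. There were 13 clusters at least 8-fold higher and 3 at least 8-fold lower in M that missed the limma adjusted p, against 278 and 44 that passed. The median standard deviation in the higher group was 1.29 and 2.87 (log2, n = 3) for the former, and 0.38 and 0.69 for the latter. The largest of the uncalled rises was a cluster listed at 0 in C replicates 1 and 3 and at 3632 FPKM in C replicate 2, with 2969, 1188 and 4798 FPKM in the M libraries and 0, 6.87 and 1.39 FPKM in the L libraries. Its fitted log2(FPKM + 1) difference was 7.38 ± 2.74 (SE, limma adjusted p = 0.0966), which depends on the pseudocount, since both other C values are listed at 0. The largest of the uncalled falls stood at 547.4, 4.18 and 717.3 FPKM in C replicates 1 to 3, at 4.18, 2.53 and 1.60 FPKM in the M libraries and at 3.25, 0.59 and 6.70 FPKM in the L libraries, a log2 difference of -5.13 ± 1.63 (SE, limma adjusted p = 0.0602). In both, C replicate 2 had values in or near the range of M and far from its own group. These clusters were chosen after their values were seen. In L, the first cluster was low, as in the other C libraries, while for the second C replicate 2 lay inside the L range as well as the M range. The source of these values was not tested.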
